A study of Homo sapiens with 10 samples.

Results

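The clusters described here are 136 of 31848 gene clusters, groups of overlapping transcripts counted as 1 gene, whose RNA was lower in every library that received a CRISPR activator than in both libraries that received a guide RNA alone. They were chosen by measured values of this same contrast. CPM is a cluster's expected count scaled to a common sum per library. A cluster was taken when its highest CPM over the 8 activator libraries was at most the lower of the 2 guide-only CPM values divided by 1.1. It also needed a mean of at least 5 CPM over the 10 libraries and a mean transcript length from 700 to under 9000 nt, and the 100 clusters of highest mean TPM (abundance per transcript length) in that range were left out. Of the 31848 clusters, 10545 met the limits on level, length and abundance and are called eligible, so the members were 1.29% of them. Turned round, the same margin found 126 eligible clusters, 1.19%, that were higher in all 8 activator libraries. The lower level against the guide-only control is therefore how the members were found, and its values are given as a description without a test.

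The 10 poly(A) RNA libraries came from HEK293T, an established human line derived from embryonic kidney, transfected in 5 groups of 2 libraries labelled VP64, VPR, SAM, Suntag and Guide Only Control. Per the series' design text, the cells of the first 4 groups received a catalytically dead Cas9 activator and a guide RNA directed at HBG1, a fetal globin gene. The control is labelled as guide only, and the labels do not name its guide's target. None of the 10 libraries is labelled as having dead Cas9 without an activation domain, and the labels do not say which plasmids the guide-only cells received besides the guide. Nor do they say that replicates were grown or transfected separately. The p-values therefore cover only how far these libraries scatter, which may be technical scatter.

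Dead Cas9 binds the DNA site matched by its guide and does not cut it. VP64 is a viral activation domain fused to it, and VPR adds the p65 and Rta activation domains. SAM uses hairpins added to the guide RNA to bring further activation domains to the site. Suntag carries a peptide array that is bound by antibody fragments fused to VP64. Each is meant to raise transcription of the gene near the guide's site.

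The files number the clusters and list 82960 transcript identifiers without gene names. In the gene name tables at hand, 3 of these identifiers were found and 0 of them belonged to a member. The members are therefore given without gene names, functions or sequences. For the same reason HBG1 and markers of the cell line were not located, so the group labels and the cell line were not checked against them. Members are called by rank, from 1 to 136, in the order of their gap, which is the ratio of the lower guide-only CPM to the highest activator CPM. Cluster 11928 has rank 1 and cluster 14072 rank 2.

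In most members the fall was modest. The mean of the 8 activator libraries was lower than the guide-only mean by 13.4% to 53.3%, with a median of 23.8%. It was at least 20% lower in 110 members, at least 30% lower in 22 and at least 50% lower in 1. The gap itself ran from 1.1 to 1.36 with a median of 1.14, and it reached 1.2 in 19 members and 1.3 in 4. The 136 members together took 1.72% and 1.74% of the counts of the guide-only libraries. They took between 1.3% (VPR replicate 1) and 1.42% (VP64 replicate 1) in the 8 activator libraries, with group means of 1.40% ± 0.0269 with VP64, 1.33% ± 0.0353 with VPR, 1.35% ± 0.0113 with SAM and 1.36% ± 0.0355 with Suntag (SD, n = 2 each). Fewer cells of a kind and less RNA per cell cannot be told apart in bulk RNA.

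**Figure D1:**
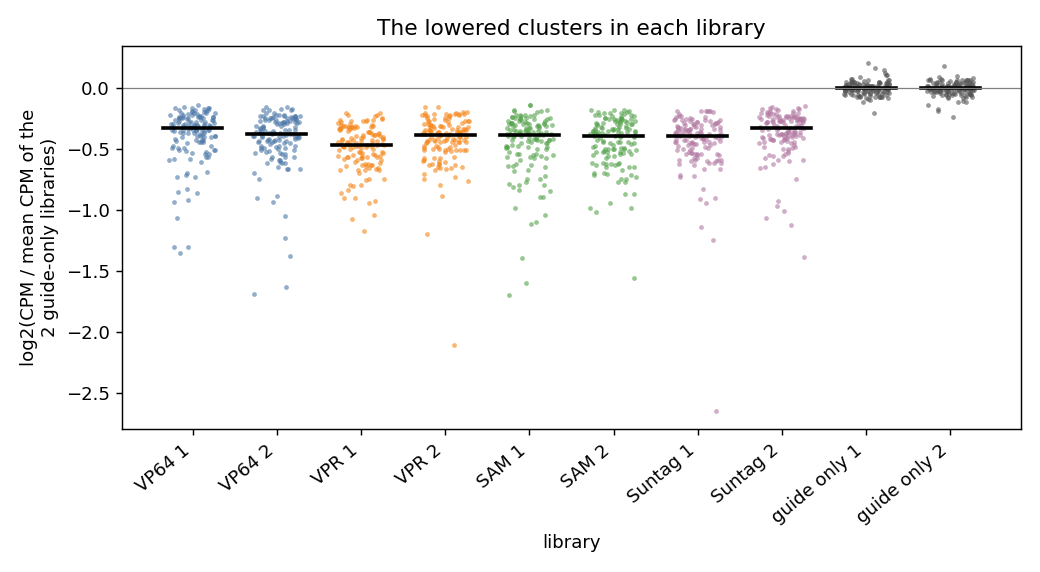
Log2 ratio of each of the 136 members' CPM to its mean over the 2 guide-only libraries (vertical axis), by library (horizontal axis); points are members, black bars are medians over members, and 1 member at 0 in VPR replicate 1 is not drawn there. The medians of the 8 activator libraries lie between -0.47 and -0.33, and the separation from the guide-only libraries is how the members were chosen.

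By group, the median log2 ratio of the members' CPM to guide-only was -0.36 with VP64, -0.45 with VPR, -0.40 with SAM and -0.38 with Suntag. The same median over all eligible clusters was -0.07, -0.10, 0.01 and -0.04. These 4 comparisons share the same 2 control libraries. The SD of the member median between the 2 libraries of a group was 0.0308 with VP64, 0.0595 with VPR, 0.00394 with SAM and 0.0485 with Suntag. Scatter of the guide-only libraries is not in these values, since each ratio is to the mean of that pair.

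The 3 members just inside the margin had gaps of 1.1001, 1.1003 and 1.1006, and the 3 eligible clusters just outside it had 1.0997, 1.0993 and 1.0993. The levels on either side are alike. The member nearest the margin held 116 CPM in the lower guide-only library and 106 CPM in the highest activator library, and the nearest cluster outside held 101 and 92.3 CPM. In 844 eligible clusters, 8.0% of the 10545, both guide-only libraries lay above all 8 activator libraries by any margin, so the members are the part of this wider set with the widest separation.

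Cluster 11928 (rank 1), with 1 transcript of 4842 nt, held 20.6 and 21.4 CPM in the guide-only libraries. In the activator libraries it held 15.1 and 13.3 CPM with VP64, 14.3 and 12.1 with VPR, 12.5 and 12.9 with SAM, and 14.0 and 14.5 with Suntag. The guide-only pair stood clear of the other 8 values. Among the activators, both SAM values lay below those of VP64 and Suntag and within the range of VPR. Its log2 ratio to guide-only was -0.56 with VP64, -0.67 with VPR, -0.73 with SAM and -0.56 with Suntag.

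Cluster 14072 (rank 2), with 8 transcripts and a mean length of 4797 nt, held 8.80 and 8.40 CPM in guide-only. It held 3.36 and 6.33 CPM with VP64, 4.95 and 5.50 with VPR, 5.82 and 6.09 with SAM, and 6.28 and 3.94 with Suntag. These levels rest on 18 to 51 counts per library, and the replicates of VP64 and Suntag spread widely. Both clusters had whole counts in all 10 libraries, which is how reads that fit 1 cluster alone appear.

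The next members of the ranking were of the same kind. Rank 3 (2433 nt) held 9.44 and 9.22 CPM in guide-only and 5.50 to 6.99 CPM in the activator libraries, with a median of 6.58. Rank 4 (1909 nt) held 8.59 and 8.40 CPM in guide-only and 2.62 to 6.45 in the others, with its lowest value in SAM replicate 1. Its levels rest on 9 to 51 counts per library, with the 9 in SAM replicate 1. Rank 5 (2787 nt) held 17.4 and 19.1 CPM against 9.47 to 13.4. Rank 5 is the one among these whose order did not hold per transcript length: on the TPM scale its lower guide-only value was 0.89 of the highest activator value.

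Ranks 6 to 10 were more abundant. Rank 6 (4386 nt) held 39.3 and 39.4 CPM in guide-only and 23.7 to 30.6 in the activator libraries. Rank 7 (3501 nt) held 125 CPM in both guide-only libraries and 82.8 to 99.8 in the others. Rank 8 (7887 nt) held 33.9 and 33.8 CPM against 20.4 to 27.1. In these 3 the guide-only replicates differed by far less than the activator libraries among themselves. That is likely from the start, since 2 libraries are set against 8 and the rule uses the lower guide-only value. Rank 9 (5185 nt) held 102 and 98.3 CPM against 69.7 to 79.7, and rank 10 (3331 nt) 24.5 and 26.3 CPM against 13.7 to 19.9, with both SAM libraries lowest.

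**Figure D2:**
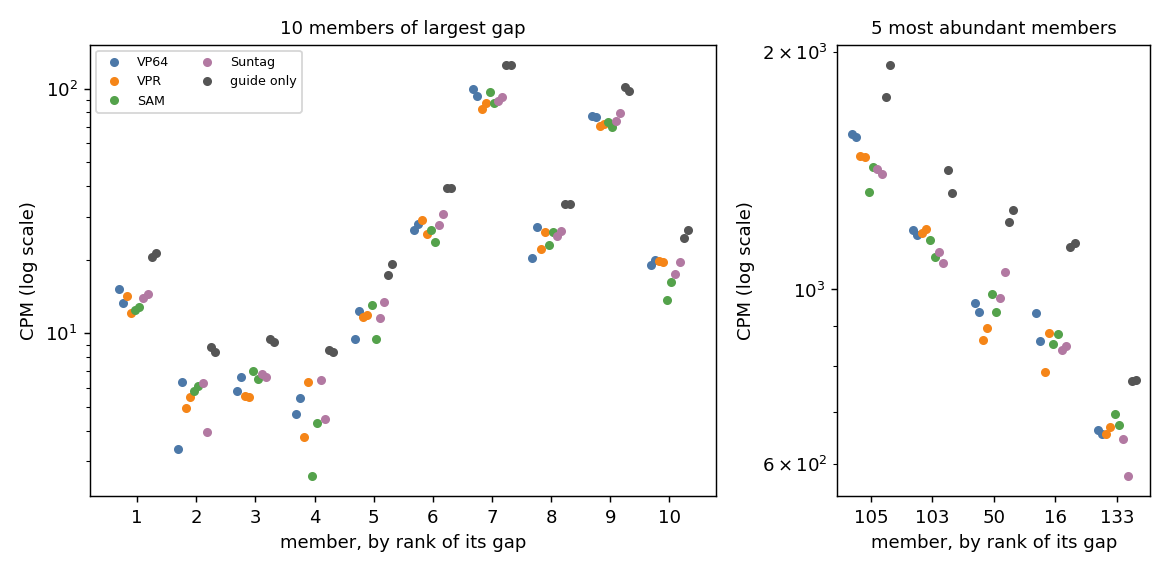
CPM (vertical axis, log scale) of the 10 members of largest gap (left) and the 5 most abundant members (right), with 1 point per library, coloured by group; the horizontal axis gives the member's rank. In rank 6 the 2 guide-only points sit at 39.3 and 39.4 CPM above activator points of 23.7 to 30.6.

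The 5 most abundant members rest on the most reads. Rank 105 (3676 nt) held 1754 and 1925 CPM in guide-only, 1577 and 1559 with VP64, 1479 and 1472 with VPR, 1328 and 1431 with SAM, and 1421 and 1402 with Suntag. VP64 lay nearest to guide-only here. Rank 103 (2930 nt) held 1418 and 1326 CPM in guide-only and 1080 to 1192 in the activator libraries. Rank 50 (5126 nt) held 1216 and 1261 CPM against 862 to 1051. Rank 16 (2318 nt) combined a high level with a wide gap of 1.21: it held 1133 and 1147 CPM in guide-only, 933 and 860 with VP64, 786 and 880 with VPR, 853 and 878 with SAM, and 838 and 847 with Suntag. Its group means were 1140 ± 9.76 CPM in guide-only and 833 ± 66.4 to 897 ± 51.8 CPM in the activators (SD, n = 2 each). Rank 133 (3564 nt) held 765 and 768 CPM against 581 to 695, with Suntag replicate 2 lowest.

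At the other end, the largest mean falls belonged to members with scattered values. Rank 31 (4569 nt), the one member at least 50% lower, held 24 and 17.6 CPM in guide-only, 11.8 and 6.45 with VP64, 0 and 12.6 with VPR, 14.5 and 15 with SAM, and 3.31 and 14.2 with Suntag. Its counts were not whole, and the replicates of VPR and of Suntag lay far apart. Rank 11 (2902 nt) held 12.2 and 11.7 CPM in guide-only and 2.77 to 9.51 in the others, and its mean was 49.6% lower.

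By level, 15 members had a mean under 10 CPM, 93 had 10 to under 100, 21 had 100 to under 500 and 7 had at least 500. The median of the mean level was 37.0 CPM in the members and 34.8 in the eligible clusters. Members made up 1.15%, 1.12%, 1.28%, 1.32% and 1.23% of eligible clusters at 5 to 10, 10 to 20, 20 to 50, 50 to 100 and 100 to 500 CPM, and 6.48% of the 108 above 500 CPM. The last share rests on 7 members, and the 100 clusters of highest mean TPM had been left out. The part of transcript length and of count level in it was not tested. The ten-library sum of a member's counts ran from 259 to 78784, with a median of 1896. Per transcript length, members had a median of 20.7 TPM and eligible clusters 24.5 TPM.

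Transcript length, which the rule used only as a range, differed between the members and the other eligible clusters. Their median length was 4089 nt, with quartiles at 3157 and 5114 nt, against 2979 nt (2000 and 4348 nt) for the eligible clusters and 1247 nt for the 126 clusters raised in all 8 libraries. From 700 to 1500 nt, 2 of 1314 eligible clusters were members (0.152%), and 80 were in the raised set (6.09%). From 1500 to 2500 nt the shares were 0.581% and 1.16%, and from 2500 to 3500 nt 0.984% and 0.342%. From 3500 to 4500 nt 43 of 1729 were members (2.49%), from 4500 to 6000 nt 32 of 1445 (2.21%) and from 6000 to 9000 nt 20 of 965 (2.07%), with 5, 1 and 0 in the raised set. The share of members rose with length up to about 3500 nt and was similar above it. Length bins are a description, since clusters are not replicates.

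**Figure D3:**
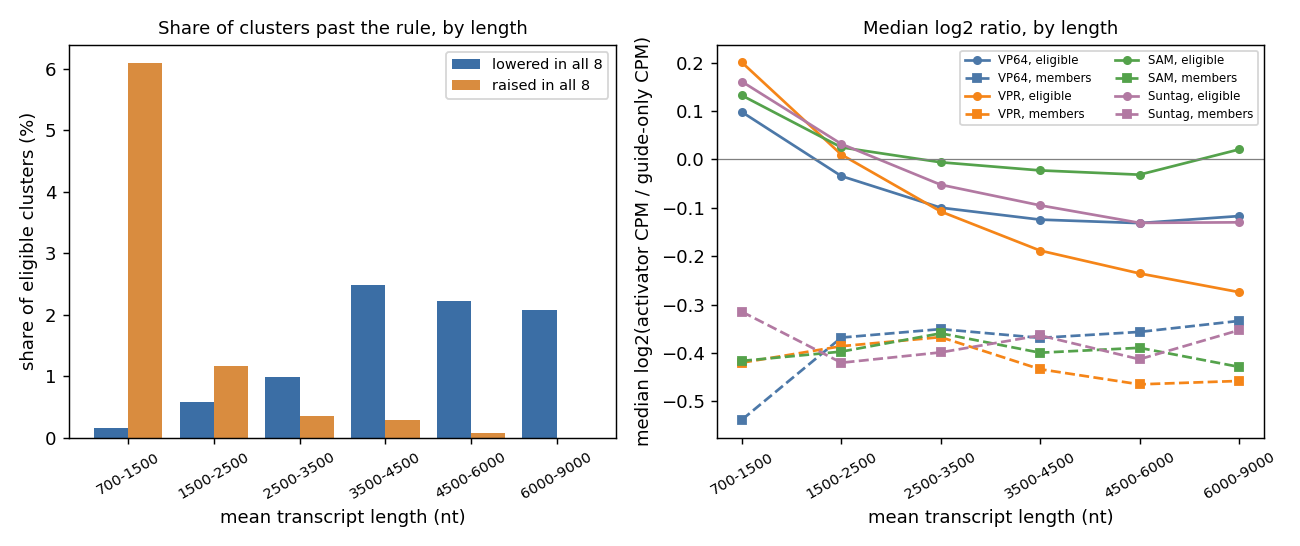
Left, the share of eligible clusters (%) that were lower (blue) or higher (orange) in all 8 activator libraries, by mean transcript length in nt. Right, the median log2 ratio of CPM to guide-only in each length bin, for eligible clusters (solid) and members (dashed) of each activator; members lie lower in every bin by construction, and bins hold 2 to 43 of them.

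Over all eligible clusters the log2 ratio to guide-only also ran down with length. In VPR it went from 0.20 at 700 to 1500 nt to -0.27 at 6000 to 9000 nt, in VP64 from 0.10 to -0.12, and in Suntag from 0.16 to -0.13, while in SAM it was 0.13 and 0.02. The members' medians varied less between bins in VPR. At 3500 to 4500 nt they were -0.37 with VP64, -0.43 with VPR, -0.40 with SAM and -0.36 with Suntag, against -0.12, -0.19, -0.02 and -0.09 for all eligible clusters of that length.

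The mean fragment length, derived from the deposited lengths, was also greatest in the guide-only libraries. It was 131 ± 2.51 nt in guide-only, 113 ± 13.9 with VP64, 112 ± 1.46 with VPR, 107 ± 13.1 with SAM and 93.2 ± 4.82 with Suntag (SD, n = 2 each), and the part of fragment length in the result was not tested. When each library's trend with transcript length was removed, after TMM scaling, both guide-only libraries stayed above all 8 activator libraries in 125 of 136 members, and by the margin of 1.1 in 47. With TMM scaling alone the numbers were 136 and 84, and by the margin 93 of all eligible clusters passed. The count over eligible clusters with the trend removed was not computed. All of these counts are for members chosen by this separation and support nothing about them. The median log2 ratios with the trend removed were -0.26 with VP64, -0.26 with VPR, -0.42 with SAM and -0.29 with Suntag, with eligible medians of 0.00, -0.01, -0.04 and -0.01.

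Per transcript length the separation was mostly kept, which is likely from the start, since TPM rescales the counts by which the members were chosen. In TPM, both guide-only libraries exceeded all 8 activator libraries in 129 members, and by the margin of 1.1 in 114. By that margin 225 of the 10545 eligible clusters passed in TPM. These counts support nothing about the members. Ranks 5, 52, 110, 115, 118, 126 and 130 overlapped on this scale. TPM divides by a length that is weighted by the transcripts in use, which varied between libraries in 102 of the members. That weighted length is a readout the rule did not use, apart from its mean. Both guide-only libraries had a longer weighted length than all 8 activator libraries in 1 of the 102 (rank 114), against 2.07% of 8386 eligible clusters with a varying length, and a shorter one in 1 (rank 13), against 2.47%. For rank 13 the weighted length was 6800 and 6815 nt in guide-only and 6871 to 6927 nt in the activators. For rank 114 it was 4330 and 4334 nt against 4064 to 4330 nt, a difference of under 1 nt at the nearest. These shares are not above the background, so the weighted length did not separate guide-only libraries among the members more often than among eligible clusters.

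Members did not stand apart in how many transcripts they hold or how their reads were divided. They held 1 to 25 transcripts, with a median of 3 in members and eligible clusters alike, and 28 members (20.6%) held a single one, against 16.8% of eligible clusters. Whole counts in all 10 libraries were found in 25 members, 18.4%, against 17.7%. The other 111 had counts that were not whole, as arise when reads are divided between clusters, and their levels depend on that division. Ranks 63 and 64 are a pair of equal length (2477 nt), with 6 transcripts each and the same counts in every library, as near-identical copies would have, and count as 1 observation. Summed with the cluster before and after it by number, 92 of the 136 members kept both guide-only libraries above all 8 activator libraries, 79 of them among the 111 with divided counts. The neighbours held a median of 38.3% of these sums, so the sums also carry other RNA. The share of eligible clusters that kept this order in such sums was not computed. Neighbouring numbers were rare among members, with 1 such pair.

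The fit across 13241 clusters, with edgeR's quasi-likelihood test and Benjamini-Hochberg adjustment at 0.05, is given beside this only as a description and supports nothing about the members, since the rule used the same contrast and libraries. Of the 136 members, 5 passed as lower in VP64, 36 with VPR, 59 with SAM and 13 with Suntag, and 0 as higher, at the unadjusted p too, since the fitted level of every member was below guide-only. Over all tested clusters 0.151%, 2.02%, 2.94% and 0.34% passed as lower in these 4 comparisons, and nothing is read from the difference. In 64 members no activator passed, in 38 one did, in 27 a pair did, in 7 there were 3, and in 0 all 4. With the length trend removed the count was 63 for SAM, 5 for VPR, 2 for Suntag and 1 for VP64, so each but that of SAM was smaller. The counts also changed when 1 library was left out. Such a fit leaves 1 library in a group and fewer residual degrees of freedom, so its counts are not given. Without 1 library of the compared groups, the median log2 ratio of the members' CPM to guide-only ran from -0.37 to -0.33 with VP64. It ran from -0.47 to -0.38 with VPR, from -0.40 to -0.38 with SAM and from -0.40 to -0.33 with Suntag.

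Comparisons between activators set no direction by the rule, which caps all 8 libraries alike, and they ask whether the fall was equally deep in each. The cap leaves out clusters in which any activator library was high, so it narrows differences between activators by itself. Where none was 0, the median ratio of highest to lowest activator CPM was 1.29 in members and 1.43 in eligible clusters. Shares of members under those of all tested clusters, adjusted or not, are therefore not read as a likeness of the activators. In the edgeR fit of all 10 libraries, 10 calls on 7 members passed over the 6 pairs of activators. For SAM against VP64, 5 members (3.68%) were lower in SAM, against 2.77% of all tested clusters, and 1 (0.735%) was higher, against 1.52%. For VPR against SAM, 3 (2.21%) were higher in VPR, against 3.56%, and 0 were lower, against 2.11%. For SAM against Suntag, 1 (0.735%) was lower in SAM, against 1.0%, and 0 were higher, against 0.717%. All of these shares are under the background, or within 1 percentage point of it, so they are not a result about the members as a set. In either direction, 20 members (14.7%) passed an unadjusted p under 0.05 by edgeR for VPR against SAM, against 23.0% of all tested clusters. For SAM against Suntag 19 did (14.0%, against 18.5%), and DESeq2 called 2 in each pair, for which no share over all clusters is given.

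No member passed for Suntag against VP64, VPR against VP64 or VPR against Suntag, where 0.234%, 0.00755% and 0.00% of all tested clusters passed. At an unadjusted p under 0.05, 10, 8 and 11 members (7.35%, 5.88% and 8.09%) passed in these 3 pairs by edgeR, against 14.8%, 8.64% and 13.3% of all tested clusters, and DESeq2 called 0 in each. Their median log2 differences over members were -0.05, -0.06 and -0.03, and single members ranged from -0.47 to 0.85, from -0.42 to 0.86 and from -0.41 to 0.34. The median log2 difference of SAM was -0.14 against VP64 and -0.10 against Suntag, and that of VPR against SAM was 0.06. Over all tested clusters these 3 medians were 0.00, -0.01 and 0.00. In 110 of 136 members the fitted level was lower in SAM than in VP64, in 101 lower than in Suntag and in 97 lower than in VPR. These fitted levels are TMM-scaled, and the order of SAM and VPR turns with the scaling: by mean CPM, SAM was lower than VPR in 48 members, than VP64 in 83 and than Suntag in 82. No test is given for these counts, and the share of eligible clusters in the same direction was not computed. By mean CPM the eligible median log2 ratio to guide-only was 0.01 with SAM, -0.07 with VP64, -0.10 with VPR and -0.04 with Suntag. The counts are therefore not a result about the members.

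Of the libraries' order among activators, both SAM libraries lay below the 6 other activator libraries in 15 members (11%), against 7.20% of eligible clusters, and above them in 10 (7.35%), against 17.7%. For VP64 the numbers were 1 below (0.735%, against 7.15%) and 11 above (8.09%, against 4.76%). For VPR they were 10 below (7.35%, against 7.01%) and 3 above (2.21%, against 2.92%), and for Suntag 5 below (3.68%, against 4.09%) and 6 above (4.41%, against 5.44%). The cap leaves out clusters in which the libraries of 1 activator came near or above guide-only, and SAM was the group most often above among eligible clusters. Single libraries differed too: Suntag replicate 2 was the highest activator library in 38 members (27.9%, against 20.8% of eligible clusters) and VPR replicate 1 the lowest in 41 (30.1%, against 20.7%).

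Among the 7 members that differed between activators, ranks 55 and 111 did so in more than 1 pair, with SAM lowest. Rank 55 (6884 nt) held 45.7 and 45.8 CPM with SAM, 72.6 and 70.0 with VP64, 68.9 and 64.4 with VPR, 61.9 and 70.1 with Suntag, and 83.7 and 97.3 in guide-only. SAM did not overlap any other group. The log2 differences given for these 7 members are from the TMM-scaled fit and differ from the ratios of the printed CPM values. TMM factors were 1.049 and 1.031 in SAM and 0.979 and 0.976 in VP64, so the fit sets SAM lower than CPM does. The log2 difference of SAM was -0.73 ± 0.11 (SE) from VP64 (edgeR adjusted p = 0.0053) and -0.59 ± 0.11 from Suntag (edgeR adjusted p = 0.0223), and VPR exceeded SAM by 0.64 ± 0.11 (edgeR adjusted p = 0.00672), in 2 of 2 libraries each.

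Rank 111 (2330 nt, 1 transcript) held 88.4 and 91.2 CPM with SAM, 129 and 119 with VP64, 131 and 134 with VPR, 107 and 117 with Suntag, and 148 and 163 in guide-only. SAM again lay under every other library. Its log2 difference from VP64 was -0.56 ± 0.09 (edgeR adjusted p = 0.00753), and VPR exceeded it by 0.66 ± 0.09 (edgeR adjusted p = 0.00236).

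**Figure D4:**
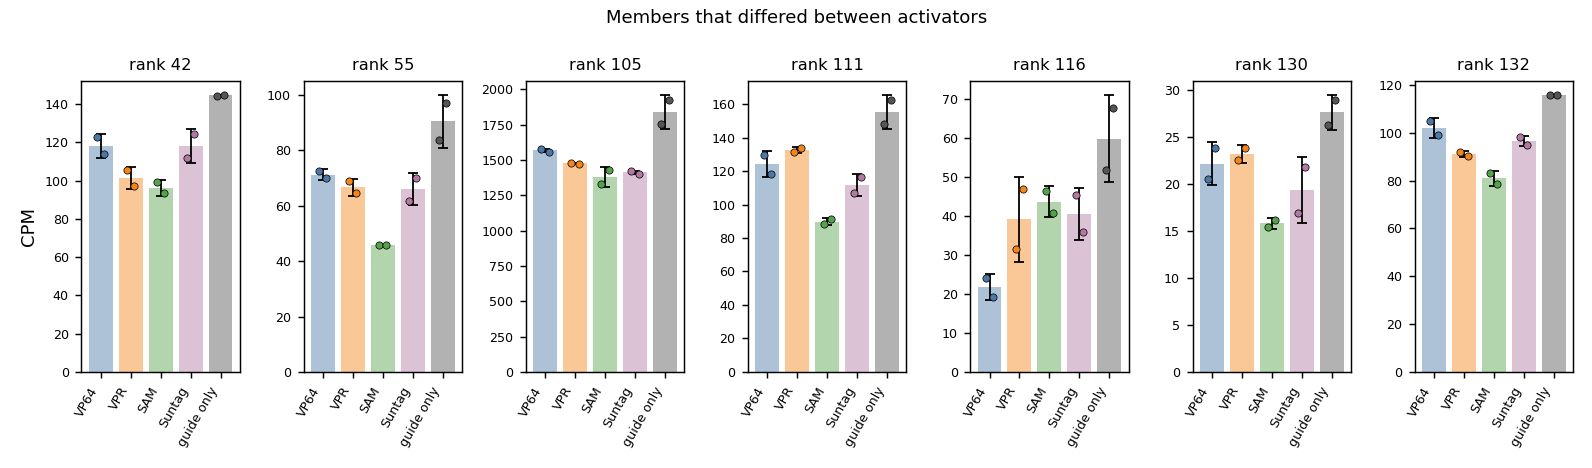
CPM (vertical axis, from 0, its own scale in each panel) of the 7 members that differed between activators, by group; bars are means, error bars SD (n = 2) and points single libraries. SAM is the lowest group in 6 panels (ranks 42, 55, 105, 111, 130 and 132) and VP64 in the panel of rank 116.

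The other 5 differed in 1 pair. Rank 42 (7843 nt) held 99.3 and 93.3 CPM with SAM and 123 and 114 with VP64. Its TMM-scaled log2 difference was -0.39 ± 0.09 (edgeR adjusted p = 0.0307). Rank 105 differed by -0.27 ± 0.07 between SAM and VP64 (edgeR adjusted p = 0.0439). Rank 132 (3616 nt) held 83.3 and 78.7 CPM with SAM and 105 and 99.1 with VP64. Its TMM-scaled log2 difference was -0.43 ± 0.09 (edgeR adjusted p = 0.02). In these 3 the SAM and VP64 libraries did not overlap.

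Rank 130 (4573 nt, 25 transcripts) held 15.4 and 16.2 CPM with SAM and 22.6 and 23.9 with VPR, so that VPR was higher by 0.65 ± 0.16 (edgeR adjusted p = 0.0288). It is one of the members that overlapped with guide-only in TPM. Rank 116 (3634 nt) went the other way. It held 24.2 and 19.4 CPM with VP64, 31.4 and 46.9 with VPR, 46.5 and 40.9 with SAM, 45.3 and 35.8 with Suntag, and 51.9 and 67.8 in guide-only. SAM exceeded VP64 by 0.89 ± 0.21 (edgeR adjusted p = 0.0318), the VP64 libraries being the lowest of all 10. The counts of these 7 members were not whole, and the part of reads shared with other clusters was not tested. No call held in every fit without 1 library of the compared groups, and such fits leave 1 library in a group. In those fits the log2 difference of SAM from VP64 ran from -0.75 to -0.70 in rank 55. It ran from -0.34 to -0.21 in rank 105 and from 0.77 to 1.08 in rank 116.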

How the data were processed

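Poly(A) RNA-seq of 10 libraries, 2 in each of 5 groups by title, was used. Per the submitters' processing notes, the authors used RSEM 1.2.1 and the hg19 build, with an annotation not given in the sources used here. The deposited values are expected counts, RSEM's estimated counts, which need not be whole, and TPM, which the authors' program scales by effective length within each library. Libraries held 3316534 to 7447949 expected counts. Per the labels' protocols, second-strand synthesis and a Nextera XT kit were used, which do not mark strand. Reads from sequence that overlapping genes share therefore cannot be told apart by strand.

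The members, lists and tests were chosen with earlier results of these data known. CPM was computed from expected counts and their sum. Rounded expected counts entered edgeR 4.0.16 under R 4.3.3. After filterByExpr, 13241 clusters were left, all 136 members included. With TMM factors, 1 quasi-likelihood model covered the 10 libraries (5 residual degrees of freedom), and p-values were adjusted by Benjamini-Hochberg within each comparison over all tested clusters. The SE divides the log2 change by the root of the F statistic. An exact two-sided permutation of 2 against 2 cannot go below p = 0.333. Mean fragment length was the difference of the deposited length and effective length, per library. A count was whole within 0.01. Length trends were removed by loess on log2 transcript length. On simulated data for SAM against VP64 (12995 clusters), 8%, 44%, 66% and 88% of 50 clusters each changed 1.25-, 1.5-, 2- and 4-fold were called, with 11 false among 114 calls.

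Described in full by rule were the 10 members of largest gap, the 5 of highest mean CPM and those called between activators; at most 2 cluster numbers are printed, and ranks 11, 13, 31, 63, 64 and 114 were added after their values were seen. Alternatives were RLE factors, DESeq2 1.42.0, no filter, the compared groups alone, a replicate block, the length trend removed, TPM, TMM sizes, sums with list neighbours, other margins, and each library left out.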

Additional observations from a re-analysis of the deposited data

Results flagged for a closer look

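A test of the difference between 2 activators, edgeR's quasi-likelihood test with adjustment over all clusters, drew attention to 7 members. For SAM against VP64 the TMM-scaled log2 differences were -0.39 (rank 42), -0.73 (rank 55), -0.27 (rank 105), -0.56 (rank 111), 0.89 (rank 116) and -0.43 (rank 132). For VPR against SAM they were 0.64 (rank 55), 0.66 (rank 111) and 0.65 (rank 130), and for SAM against Suntag -0.59 (rank 55). Groups of 2 libraries are too small to be searched for single libraries that stand apart, and no file was left unused.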

How the results depend on the processing

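The number of members was 844 at a margin of 1, 19 at a margin of 1.2 (all 19 among the 136) and 225 in TPM (114 shared); with TMM sizes it was 93, of which 84 were shared. It ran from 149 to 509 without 1 library, with 225 without Suntag replicate 2, 507 without guide-only replicate 1 and 509 without guide-only replicate 2. Leaving a library out can only loosen a margin between a lowest and a highest value, so a larger number was all but fixed. The members were chosen by the contrast with guide-only, so a sign below 0 was all but fixed and supports nothing. The median log2 ratio to guide-only stayed below 0 in every alternative run. With TMM sizes it was -0.30 in VP64, -0.37 in VPR and -0.42 in SAM, in TPM -0.41, -0.54 and -0.41, with list neighbours -0.23, -0.29, -0.24 and (Suntag) -0.25, and with the length trend removed -0.26, -0.26, -0.42 and -0.29. Without 1 library it ran from -0.47 to -0.38 in VPR, -0.40 to -0.38 in SAM and -0.40 to -0.33 in Suntag.

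Members called lower against guide-only numbered 18 in VP64 and 31 in Suntag without a filter, 24 and 0 in the compared groups alone, and 1, 5 (VPR) and 2 with the length trend removed. DESeq2 called 21 in VPR and 32 in SAM. The share of all tested clusters called in each setting is not given, so these counts are not a result about the members. The replicate numbers share only a number: their deviations correlated from -0.0705 to 0.0715 between groups, and with a replicate block 2 members were called in VP64 and 4 in Suntag, while the call of rank 105 between SAM and VP64 ended (edgeR adjusted p = 0.0593, with 0.00407 to 0.278 over its alternatives). Without 1 library the counts ran from 0 to 14 in VP64, 5 to 53 in VPR, 4 to 73 in SAM and 0 to 13 in Suntag.

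Between activators, the compared groups alone gave 12 calls for SAM against VP64, 0 for SAM against Suntag, 1 for Suntag against VP64 and 1 for VPR against VP64. Without a filter there were 7 for SAM and VPR, 6 for SAM and Suntag, 1 for Suntag against VP64 and 1 for VPR against VP64. With the length trend removed the number was 8 for SAM and VPR and 4 for SAM and Suntag, for which DESeq2 gave 2. Without 1 library these counts ran from 0 to 9 (SAM and VP64), 0 to 6 (VPR and SAM), 0 to 4 (SAM and Suntag) and 0 to 1 (VPR and Suntag). No share of all tested clusters is given for these settings, so the counts are not a result about the members. None of the 10 single differences changed sign. The causes were not tested.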
